A study of Homo sapiens with 2 samples.

Results

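The genes described here encode the machinery of DNA replication and of mitosis, together with the cyclins, kinases and transcription factors that drive the cell cycle. The list held 44 genes, chosen by name from their known function, of 20163 protein-coding genes on chromosomes 1 to 22, X and Y in GENCODE 44 lifted to GRCh37 (hg19). All 44 were found in the annotation. For each gene, the accessibility peaks that the authors deposited were searched 3 kb to each side of the transcription start site (TSS), and the promoter height was the tallest of them, in tags per 1000000 tags of the library after filtering (RPM).

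Accessibility was measured by ATAC-seq, which uses the Tn5 transposase to cut open chromatin and to attach sequencing adapters at the cuts. G401 cells, a malignant rhabdoid tumor line grown in DMEM with serum and 2-mercaptoethanol, received either DMSO or MAK683, an EED-binding inhibitor of Polycomb repressive complex PRC2, for 3 days. The series gives 3 µM as the concentration of MAK683. Each group was 1 library, so no difference below could be set against the spread between cultures, and no test was possible. Intervals of single genes cover counting error only, and those of medians cover the spread over genes. Neither kind covers the spread between cultures. The libraries held 16598348 (DMSO) and 18265284 (MAK683) tags after filtering, which makes 1 tag worth 0.0602 and 0.0547 RPM. SMARCB1, the gene whose loss defines rhabdoid tumors, had 0 peaks within 3 kb of its TSS or anywhere in the gene in either library. The height of a peak mixes the share of cells in which a promoter is open with how open it is in each, and these cannot be told apart in bulk cells.

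A cell that commits to division first expresses the genes needed to load and fire replication origins and to make nucleotides, under the control of E2F transcription factors that the retinoblastoma protein RB holds in check. Mitotic genes follow later in the cycle, and their promoters typically carry a CHR element, read by the MuvB-containing complexes DREAM and MYB-MuvB, next to CCAAT boxes bound by NF-Y. In cells that stop dividing, the RNA of both sets usually goes down.

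The promoters of 7 members show these elements and the range of responses. They are RefSeq windows from 250 bases before to 50 bases after the annotated start (table build GRCh38.p14), placed in GRCh37 by exact match and read 5′ to 3′ on the strand of the gene, so that the start follows base 250. Capitals mark letters of an E2F site (TTTGGCGC, TTTCCCGC, TTTCGCGC or TTTGCCGC), a CHR element (TTTGAA or TTCGAA) or a CCAAT box (CCAAT), matched on either strand. A match is a description of the letters and not evidence of binding. MCM6 (chr2:136633964-136634263, minus strand) is shown for its E2F sites at bases 99 and 161, each a pair of overlapping matches counted as 1 site. CCNB2 (chr15:59397095-59397394, plus strand) is shown as a mitotic promoter with 4 CCAAT boxes and a CHR element at base 222. CDK1 (chr10:62537986-62538285, plus strand) holds all of these elements. BUB1 (chr2:111435591-111435890, minus strand) had the lowest log2 ratio among members with a peak in both libraries, GINS2 (chr16:85722511-85722810, minus strand) lacked a MAK683 peak, and CCNE1 (chr19:30302648-30302947, plus strand) was the 1 member higher in MAK683. MKI67 (chr10:129924638-129924937, minus strand) encodes the proliferation marker Ki-67, and its CHR element at base 222 shares its last letter with a CCAAT box on the other strand.
MCM6: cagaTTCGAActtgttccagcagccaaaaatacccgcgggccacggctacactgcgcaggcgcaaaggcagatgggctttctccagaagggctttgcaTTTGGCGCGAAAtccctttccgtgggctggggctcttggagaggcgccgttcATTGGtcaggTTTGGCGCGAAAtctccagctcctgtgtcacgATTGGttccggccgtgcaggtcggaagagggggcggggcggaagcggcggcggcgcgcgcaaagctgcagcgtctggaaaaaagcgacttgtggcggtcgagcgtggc
CCNB2: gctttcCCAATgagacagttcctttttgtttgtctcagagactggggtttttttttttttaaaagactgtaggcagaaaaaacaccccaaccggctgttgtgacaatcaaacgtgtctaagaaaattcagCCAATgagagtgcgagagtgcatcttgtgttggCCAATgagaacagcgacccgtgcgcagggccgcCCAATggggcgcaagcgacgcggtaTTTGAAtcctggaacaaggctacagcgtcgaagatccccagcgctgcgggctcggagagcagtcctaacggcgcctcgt
CDK1: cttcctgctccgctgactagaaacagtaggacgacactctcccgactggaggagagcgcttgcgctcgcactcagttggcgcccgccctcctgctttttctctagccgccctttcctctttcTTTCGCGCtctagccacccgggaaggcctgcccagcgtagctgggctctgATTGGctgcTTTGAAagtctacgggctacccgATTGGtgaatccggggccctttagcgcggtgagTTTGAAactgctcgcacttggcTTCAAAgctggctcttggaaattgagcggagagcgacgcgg
BUB1: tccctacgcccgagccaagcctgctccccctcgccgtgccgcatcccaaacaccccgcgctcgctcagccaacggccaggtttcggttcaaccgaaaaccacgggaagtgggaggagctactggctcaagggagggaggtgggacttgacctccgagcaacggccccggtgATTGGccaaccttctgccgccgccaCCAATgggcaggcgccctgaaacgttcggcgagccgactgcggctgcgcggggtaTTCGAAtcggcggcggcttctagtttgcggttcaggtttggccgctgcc
GINS2: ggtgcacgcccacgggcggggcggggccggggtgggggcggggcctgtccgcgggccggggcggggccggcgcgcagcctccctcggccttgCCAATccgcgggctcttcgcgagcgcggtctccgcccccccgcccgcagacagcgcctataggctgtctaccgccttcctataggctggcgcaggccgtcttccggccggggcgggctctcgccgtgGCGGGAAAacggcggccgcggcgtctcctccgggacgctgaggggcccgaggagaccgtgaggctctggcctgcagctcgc
CCNE1: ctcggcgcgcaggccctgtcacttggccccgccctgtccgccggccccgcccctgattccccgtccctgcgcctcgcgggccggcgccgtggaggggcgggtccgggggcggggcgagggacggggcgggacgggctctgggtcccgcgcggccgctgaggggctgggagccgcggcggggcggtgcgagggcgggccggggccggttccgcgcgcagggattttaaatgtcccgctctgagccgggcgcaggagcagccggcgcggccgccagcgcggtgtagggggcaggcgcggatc
MKI67: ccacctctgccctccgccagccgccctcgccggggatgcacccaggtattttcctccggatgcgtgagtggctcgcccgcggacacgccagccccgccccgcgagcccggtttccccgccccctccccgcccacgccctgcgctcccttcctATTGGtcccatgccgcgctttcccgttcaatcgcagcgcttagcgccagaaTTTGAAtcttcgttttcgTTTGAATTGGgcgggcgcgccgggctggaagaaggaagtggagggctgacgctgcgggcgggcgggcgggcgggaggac

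In the DMSO library all 44 members had a promoter peak, against 72.7% of all coding genes. In the MAK683 library 43 of 44 had one, against 78.7%. GINS2 was the 1 member with a peak in DMSO only, a pattern found at 1.84% of coding genes. No member lacked a peak in both libraries. The other 43 members had a peak in both libraries. Ratios are given next for all 44, with GINS2 in MAK683 entered at a floor of 0.361 RPM. Over the 43 with both peaks, 42 were lower and the median log2 ratio was -0.46.

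The median promoter height of the members was 2.11 RPM in DMSO (95% order-statistic interval over members 1.93 to 2.41) and 1.53 RPM in MAK683 (1.31 to 1.59). Set against DMSO, heights in MAK683 had a median log2 ratio of -0.48 (-0.60 to -0.40), or 0.716 on the linear scale. They were lower at 43 of 44 members (97.7%) and higher at CCNE1 alone. Among all coding genes with a promoter peak, 78.4% were lower and the median was -0.42 (-0.43 to -0.42). The libraries also differed in the number of peaks called, with 114060 on the main chromosomes in DMSO and 161184 in MAK683. Of all coding genes, 14660 had a promoter peak in DMSO and 15875 in MAK683, so low peaks were not balanced between the libraries. How far this difference in peak number enters the height ratios was not tested. Ratios at low peaks ran in both directions, so promoters were also compared at like heights. Of the 35 members whose mean over both libraries reached 1.5 RPM, 35 were lower, against 95.1% of the 8379 coding promoters of that height, and the medians were -0.50 and -0.51. The direction and size of the difference at the members were thus close to those of other tall promoters.

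Without depth scaling 41 members were lower and the median log2 ratio was -0.34. The direction was lost when the shift shared by all promoters was taken out. When each library was divided by its own median promoter height, 22 members lay below and 22 above the bulk of promoters, and their median log2 ratio was 0.01. With the median log2 ratio of all measured promoters subtracted, an alternative chosen after seeing the data, 24 were lower and 20 higher, with a median of -0.06. The bulk of promoters itself moved, with a log2 ratio of median heights of -0.49 over the 14288 coding genes with a peak in both libraries.

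**Figure D1:**
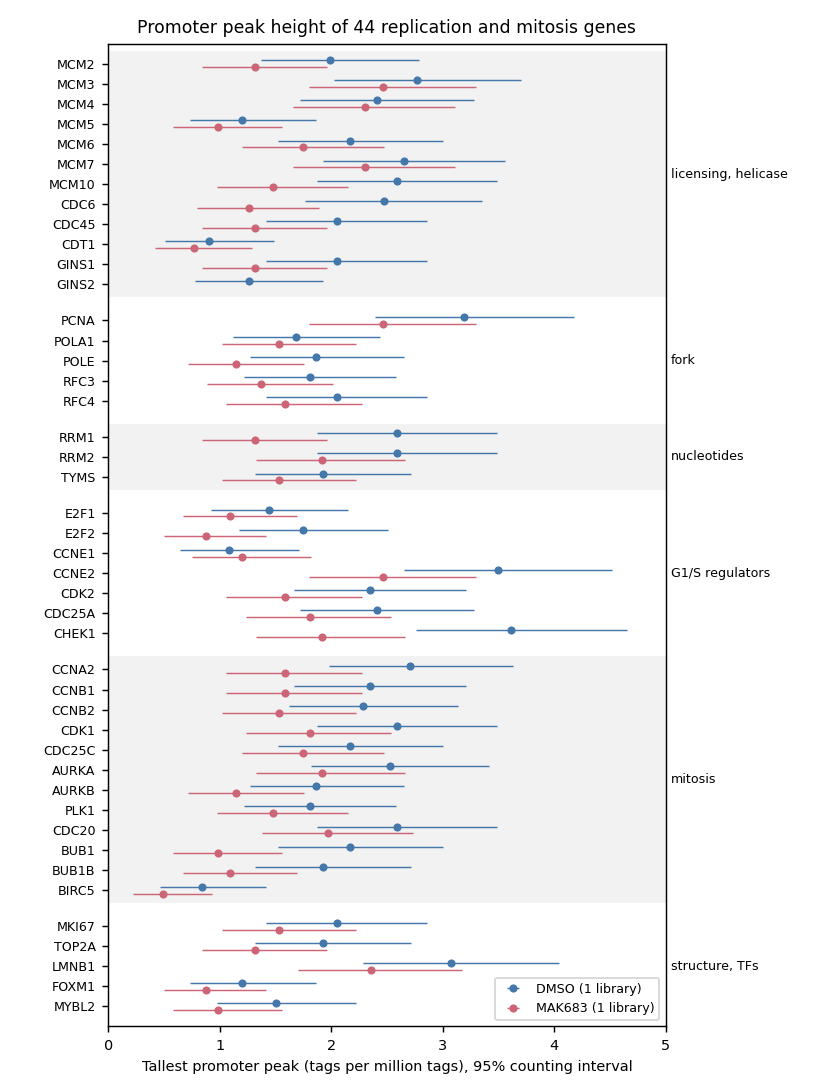
Promoter peak height of each of the 44 genes, grouped by role, in tags per 1000000 tags after filtering on the x axis, with exact 95% Clopper-Pearson counting intervals for the 1 DMSO library and the 1 MAK683 library. DMSO points run from 0.843 at BIRC5 to 3.61 at CHEK1, the MAK683 point lies left of the DMSO point at every gene with both except CCNE1, and GINS2 has no MAK683 point.

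The size of the difference was at least 1.5-fold at 16 members (36.4%), all lower in MAK683, against 32.8% of coding genes with a peak. No member was at least 1.5-fold higher, against 9.64% of coding genes. Among promoters reaching that mean of 1.5 RPM, 12 of 35 members (34.3%) and 39.7% of coding genes were at least 1.5-fold lower, and 0 members and 0.465% of coding genes were at least 1.5-fold higher. A 95% counting interval of the ratio wholly below 0 on the log2 scale was found at 7 of 43 members with both peaks (16.3%), against 16.9% of coding genes with both. These 7 were MCM10, CDC6, RRM1, E2F2, CHEK1, CCNA2 and BUB1. Neither share sets the members apart from the background.

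**Figure D2:**
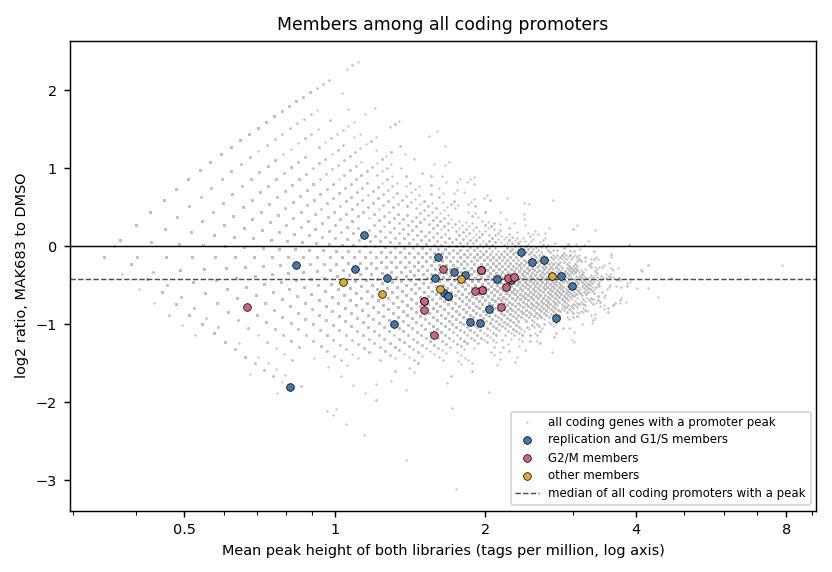
Log2 ratio of promoter height, MAK683 to DMSO, against the mean height of both libraries in tags per 1000000 tags on a log axis, with each coding gene that has a promoter peak as a grey dot and the members coloured by phase. A dashed line marks the median of all coding promoters (-0.42). The members lie within the cloud of other promoters, mostly on its tall side, and CCNE1 is the only coloured point above 0.

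Origin licensing and the replicative helicase came first among the roles. Across these 12 genes the median height was 2.11 RPM in DMSO and 1.31 in MAK683, the median log2 ratio was -0.45 (-0.81 to -0.21), all 12 were lower and 6 were at least 1.5-fold lower. Of all coding genes with a peak, 78.4% were lower and 32.8% at least 1.5-fold lower. At a mean height of at least 1.5 RPM these shares were 95.1% and 39.7%. MCM2 to MCM7 encode the hexameric ring that is loaded at origins and later unwinds DNA. The height at MCM2 was 1.99 RPM in DMSO and 1.31 in MAK683, from 33 and 24 tags. MCM3 had 2.77 and 2.46 RPM, and MCM7 had 2.65 and 2.30. MCM6 had 2.17 and 1.75 RPM, and MCM5 had 1.20 and 0.985. Only MCM2 of these ring genes was at least 1.5-fold lower, and at MCM3 to MCM7 the log2 ratios ran from -0.31 to -0.07.

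MCM4 (ENSG00000104738, chromosome 8, plus strand, TSS 48873501) had the second-highest log2 ratio of all members. Its peak held 40 tags in DMSO, or 2.41 RPM (1.72 to 3.28), and 42 tags in MAK683, or 2.30 RPM (1.66 to 3.11), at 48871822 to 48874515 and 48871895 to 48874718. The log2 ratio was -0.07 (-0.73 to 0.59), and without depth scaling it was 0.07, so its sign depends on the scaling. Its DMSO summit lay at -752 bp from the TSS (upstream negative), near PRKDC, whose start is 805 bp away on the other strand, and its MAK683 summit lay at -63 bp.

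Ratios at CDC6, MCM10, CDC45 and GINS1 were below those of all 6 ring genes, though their counting intervals overlap. CDC6, which loads the ring onto origins with CDT1, had 2.47 RPM in DMSO and 1.26 in MAK683, a log2 ratio of -0.97 (-1.78 to -0.20). MCM10, needed to activate the helicase, had 2.59 and 1.48 RPM, a log2 ratio of -0.81 (-1.56 to -0.08). CDC45 and GINS1, subunits of the active CMG helicase, both had 34 tags and 2.05 RPM in DMSO and 24 tags and 1.31 RPM in MAK683. CDT1 was the lowest of this group with both peaks, at 0.904 and 0.766 RPM, but different peaks were compared there: the tallest DMSO peak had its summit 3317 bp and the tallest MAK683 peak 870 bp downstream of the TSS. A separate DMSO peak of 14 tags with its summit at -41 bp from the CDT1 TSS had the same number of tags as the MAK683 peak.

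GINS2 (ENSG00000131153, chromosome 16, 85709804 to 85723679, minus strand), another subunit of the CMG helicase, had a DMSO peak over its TSS at 85721965 to 85723114. This peak held 21 tags, or 1.27 RPM (0.783 to 1.93), with its summit 206 bp downstream of the TSS at 85722560, and stood at percentile 24.4 of DMSO promoter heights. The MAK683 library had no peak within 3 kb. Its nearest peak lay 4040 bp from the TSS at 85718191 to 85718520, with 9 tags and 0.493 RPM. Within 50 kb of the TSS, 29 DMSO and 22 MAK683 peaks were called, so the neighbourhood was not devoid of peaks. With the missing peak counted as 0.361 RPM, the lowest height listed in DMSO, the log2 ratio is -1.81, a value that depends on this floor. No listed peak in either library was under 6 tags or 200 bp, so how low the MAK683 signal was at GINS2 cannot be told from a peak list. The printed GINS2 window is GC-rich, with 78.3% G and C, and holds an E2F site at base 220 and a CCAAT box at base 93.

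The 5 genes of the replication fork had lower values in MAK683 throughout, with a median log2 ratio of -0.37. Lower values were also found at 78.4% of coding genes with a peak, and at 95.1% of those averaging 1.5 RPM or more. PCNA (ENSG00000132646, chromosome 20, minus strand, TSS 5100604), the sliding clamp of the DNA polymerases, was the third-tallest member in DMSO. Its peak held 53 tags there, or 3.19 RPM (2.39 to 4.18), at 5099539 to 5101104, and 45 tags in MAK683, or 2.46 RPM (1.80 to 3.30), at 5099958 to 5101074. The log2 ratio of PCNA was -0.37 (-0.98 to 0.23), and its summit lay 236 bp downstream of the TSS in DMSO and at -61 bp in MAK683. RFC3 and RFC4, subunits of the clamp loader, had 1.81 and 2.05 RPM in DMSO and 1.37 and 1.59 in MAK683.

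POLA1 (ENSG00000101868, chromosome X, plus strand, TSS 24712035), the catalytic subunit of DNA polymerase alpha, which starts each new strand, ranked after CCNE1 and MCM4 in log2 ratio, as the third-highest. It had 28 tags in each library, or 1.69 RPM (1.12 to 2.44) in DMSO and 1.53 RPM (1.02 to 2.22) in MAK683, at 24711195 to 24712517 and 24711487 to 24712359. Its log2 ratio of -0.14 (-0.95 to 0.67) thus equals the difference in depth. POLE, the leading-strand polymerase, had 1.87 RPM in DMSO and 1.15 in MAK683, but the tallest DMSO peak had its summit at -2153 bp, on the side of PXMP2. With the POLE peaks whose summits lay nearest the TSS, at -71 and -153 bp, the tags were 26 and 21 and the log2 ratio -0.45 in place of -0.70.

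Of the nucleotide supply genes, RRM1, the large subunit of ribonucleotide reductase, had 43 tags in DMSO and 24 in MAK683, or 2.59 and 1.31 RPM, with a log2 ratio of -0.98 (-1.76 to -0.23). RRM2, the small subunit, had 2.59 and 1.92 RPM, a log2 ratio of -0.44 (-1.12 to 0.24). Its DMSO peak was 5041 bp long, the longest of all members, and covered the TSS while its summit lay at -2405 bp. The rule of the nearest summit picks another DMSO peak of 21 tags at RRM2, 2003 bp downstream, and turns the log2 ratio to 0.60. TYMS, thymidylate synthase, had 1.93 and 1.53 RPM, with summits 709 and 693 bp downstream of the TSS. Across these 3 genes RRM1 had the only ratio at least 1.5-fold lower (33.3%), against 32.8% of coding genes with a peak.

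The 7 regulators of the G1/S transition and the replication checkpoint held both the tallest promoters and the 1 higher ratio. Their median log2 ratio was -0.50 and 6 of 7 (85.7%) were lower. That share lies between the 78.4% of coding genes with a peak and the 95.1% of coding promoters averaging 1.5 RPM or more. CHEK1 (ENSG00000149554, chromosome 11, 125495058 to 125546150, plus strand), the checkpoint kinase that answers stalled forks, was the tallest member in DMSO. It held 60 tags there, or 3.61 RPM (2.76 to 4.65), at percentile 97.8 of DMSO promoters, and 35 tags in MAK683, or 1.92 RPM (1.33 to 2.66). The log2 ratio of CHEK1 was -0.92 (-1.56 to -0.29). Both peaks, at 125495152 to 125496813 and 125495121 to 125496829, began just downstream of the annotated TSS, with summits at +470 and +474 bp.

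CCNE2 (ENSG00000175305, chromosome 8, minus strand, TSS 95907429) followed in height. This E-type cyclin, a partner of CDK2 at the start of S phase, had 58 tags in DMSO, or 3.49 RPM (2.65 to 4.52), and 45 in MAK683, or 2.46 RPM (1.80 to 3.30), with a log2 ratio of -0.50 (-1.10 to 0.08). The peaks spanned 95905695 to 95909374 and 95905660 to 95909315, with summits at -557 and -567 bp.

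CCNE1 (ENSG00000105173, chromosome 19, 30302898 to 30315219, plus strand), the other E-type cyclin, behaved differently in sign but lay within counting error of no difference. It had 18 tags in DMSO, or 1.08 RPM (0.643 to 1.71), at 30302010 to 30303223, and 22 tags in MAK683, or 1.20 RPM (0.755 to 1.82), at 30301738 to 30303020. The log2 ratio was 0.15 (-0.81 to 1.14), which stood at percentile 82.4 of all coding promoters. In DMSO its height was at percentile 18.8, so it was also among the low members. The printed CCNE1 window is 81% G and C and holds none of the 3 motifs.

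E2F1 (ENSG00000101412, chromosome 20, minus strand, TSS 32274191), an activating E2F, had 24 tags in DMSO, or 1.45 RPM (0.926 to 2.15), and 20 in MAK683, or 1.09 RPM (0.669 to 1.69), with summits at -244 and -212 bp from its TSS. Its log2 ratio was -0.40 (-1.33 to 0.52), close to the median of all coding promoters. E2F2 (ENSG00000007968, chromosome 1, minus strand, TSS 23857725), another activating E2F, had the third-lowest log2 ratio of the members, with 29 tags in DMSO, or 1.75 RPM (1.17 to 2.51), and 16 in MAK683, or 0.876 RPM (0.501 to 1.42). The log2 ratio was -0.996 (-1.98 to -0.07), but these E2F2 peaks, at 23854437 to 23855675 and 23854531 to 23856718, had their summits 2844 and 2870 bp downstream, inside the gene. The E2F2 peak nearest the TSS held 20 and 15 tags, a log2 ratio of -0.55.

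CDK2, the kinase that E-type cyclins activate, had 2.35 RPM in DMSO and 1.59 in MAK683. CDC25A, the phosphatase that releases CDK2 from inhibition, had 2.41 and 1.81 RPM. Both lay near the middle of the members, with log2 ratios of -0.57 and -0.42.

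**Figure D3:**
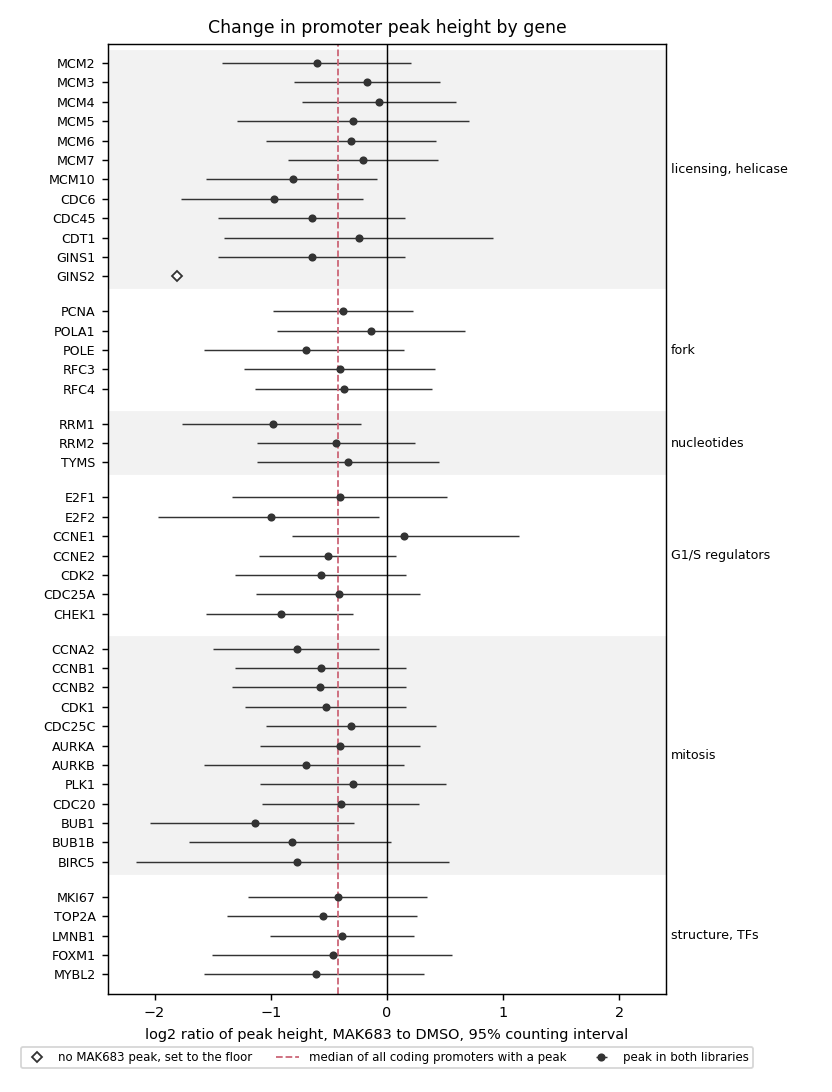
Log2 ratio of promoter height, MAK683 to DMSO, for each of the 44 genes by role, with exact conditional 95% counting intervals, where 0 means no difference and the dashed line is the median of all coding promoters with a peak (-0.42). Most intervals cross both lines, 7 lie wholly below 0, CCNE1 is the only point above 0, and the open diamond is GINS2 at its floor value of -1.81, which has no interval.

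All 12 mitotic genes were lower in MAK683, 5 of them at least 1.5-fold, with median heights of 2.23 and 1.56 RPM and a median log2 ratio of -0.57 (-0.78 to -0.39). Of all coding genes with a peak, 78.4% were lower and 32.8% at least 1.5-fold lower. At a mean height of at least 1.5 RPM, which most mitotic genes reached, these shares were 95.1% and 39.7%. For the 27 replication and G1/S genes the median was -0.42 (-0.64 to -0.31), and 10 were at least 1.5-fold lower. The intervals of these medians overlap, and relative to the median of all measured promoters the values were -0.15 and 0.01. Among the cyclins, CCNA2, which acts in S phase and G2, had 45 tags in DMSO and 29 in MAK683, or 2.71 and 1.59 RPM, with a log2 ratio of -0.77 (-1.50 to -0.07). The B-type cyclins of mitotic entry were close to each other, with 2.35 and 1.59 RPM at CCNB1 and 2.29 and 1.53 RPM at CCNB2. CDK1, the kinase they activate, had 2.59 and 1.81 RPM. CDC25C, the phosphatase that switches CDK1 on, had 2.17 and 1.75 RPM.

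Of the mitotic kinases, AURKA, which matures the spindle poles, had 2.53 RPM in DMSO and 1.92 in MAK683. AURKB, the kinase of the chromosomal passenger complex, had 1.87 and 1.15 RPM, and its partner BIRC5, or survivin, had 0.843 and 0.493 RPM from 14 and 9 tags. BIRC5 was thus the lowest member in both libraries, apart from the missing GINS2 peak. PLK1, which acts from mitotic entry to exit, had 1.81 and 1.48 RPM and a log2 ratio of -0.29, the nearest to 0 of the mitotic genes. CDC20, the activator of the anaphase-promoting complex, had 2.59 and 1.97 RPM.

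BUB1 (ENSG00000169679, chromosome 2, 111395105 to 111435640, minus strand), a kinase of the spindle checkpoint, had 36 tags in DMSO, or 2.17 RPM (1.52 to 3.00), at 111435273 to 111436658. In MAK683 it had 18 tags, or 0.985 RPM (0.584 to 1.56), at 111435283 to 111436710. The log2 ratio was -1.14 (-2.04 to -0.28), a 2.20-fold lower height, at percentile 2.73 of all coding promoters. The summits lay at -30 and -44 bp from the TSS, so the same peak was measured. With each library divided by its own median promoter height, the log2 ratio of BUB1 was -0.64. Its checkpoint relative BUB1B had 32 and 20 tags, or 1.93 and 1.09 RPM, with a log2 ratio of -0.82 (-1.70 to 0.03).

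The last 5 genes concern chromosome and nuclear structure and the transcription factors of mitotic genes. MKI67 (ENSG00000148773, chromosome 10, minus strand, TSS 129924687), whose protein coats mitotic chromosomes, had 34 tags in DMSO, or 2.05 RPM (1.42 to 2.86), at 129924015 to 129925578, and 28 in MAK683, or 1.53 RPM (1.02 to 2.22), at 129923967 to 129925961. Its log2 ratio of -0.42 (-1.19 to 0.35) equalled the median of all coding promoters to 2 decimals. LMNB1 (ENSG00000113368, chromosome 5, plus strand, TSS 126112828), which encodes the nuclear lamina protein lamin B1, a protein often lost in senescent cells, had 51 tags in DMSO, or 3.07 RPM (2.29 to 4.04), and 43 in MAK683, or 2.35 RPM (1.70 to 3.17). The log2 ratio of LMNB1 was -0.38 (-1.004 to 0.23), and its summit lay 1224 bp downstream of the TSS in DMSO and at -77 bp in MAK683. TOP2A, the topoisomerase that untangles sister chromatids, had 1.93 and 1.31 RPM. FOXM1 and MYBL2, which drive mitotic genes, had 1.20 and 1.51 RPM in DMSO and 0.876 and 0.985 in MAK683. MYBL2 was the 1 gene of these 5 that was at least 1.5-fold lower (20%), against 32.8% of coding genes with a peak.

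Other genes of the same pathways, from lists written with earlier results of these data known, were set beside the members. For comparison, 78.4% of all coding genes with a peak were lower and 32.8% at least 1.5-fold lower. At a mean height of at least 1.5 RPM these shares were 95.1% and 39.7%. Of 40 other replication genes, 39 had a peak, 39 were lower and 21 at least 1.5-fold lower, with a median log2 ratio of -0.62 (-0.88 to -0.48). ORC5, a subunit of the origin recognition complex, had the lowest ratio of these at -1.39, and CHAF1A, a histone chaperone subunit at the fork, the highest at -0.01. Of 46 other mitosis genes, 46 were lower and 23 at least 1.5-fold lower, with a median of -0.57 (-0.70 to -0.48). Of 21 genes of the E2F, RB and DREAM system, 17 were lower, 6 at least 1.5-fold, and 4 were higher, namely CDK6 at 0.18, E2F5 at 0.04, RBL1 at 0.03 and E2F4 at 0.02, with a median of -0.30 (-0.59 to -0.09).

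Of 7 cell cycle inhibitors, 6 were lower, 3 of them at least 1.5-fold (42.9%, against 32.8% of coding genes with a peak). The median was -0.26 (-0.86 to 1.05), an interval that spans 0 and the whole range of the 7 genes. CDKN2A, which encodes the CDK4 and CDK6 inhibitor p16, was the exception with 1.08 RPM in DMSO and 2.24 in MAK683, a log2 ratio of 1.05. The ribosomal protein and histone lists that follow both had medians below the -0.48 of the members. Of all coding genes with a peak, 78.4% were lower. The cytosolic ribosomal protein genes, used throughout the cycle, had a median of -0.68 (-0.77 to -0.61), with 79 of 80 lower, and the replication-dependent histone genes had a median of -0.63 (-0.74 to -0.55), with 59 of 59 lower. Clustered histone genes share peaks: these 59 genes had 37 distinct pairs of tallest peaks, which had a median of -0.64 (-0.83 to -0.56), with 37 of 37 lower.

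Ratios were also set beside chromosome location. The 7 members on chromosomes 17, 19 and 22 had a median log2 ratio of -0.64 (-0.97 to 0.15) and the 37 elsewhere -0.44 (-0.58 to -0.39). The first interval contains the second, so the members show no clear difference by location. Coding genes with a peak had medians of -0.52 on those 3 chromosomes and -0.41 elsewhere. Their median DMSO heights also differed, at 1.57 and 1.99 RPM. The part of chromosome location in the members' ratios was not tested.

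Member promoters had their summits close to the TSS. The median distance from TSS to summit was 137.5 bp in DMSO and 91 bp in MAK683, against 180 and 195 bp for coding genes with a peak in both libraries. Those coding genes were not matched to the members in height, here or in the shares below. Summits within 300 bp of the TSS were found at 33 of 44 members (75%) in DMSO and 38 of 43 (88.4%) in MAK683, against 61.3% and 59.9% of those coding genes. The tallest peak covered the TSS at 40 of 44 members (90.9%) and 40 of 43 (93%), against 82% and 80.9%. The exceptions were CDT1, E2F2 and CHEK1 in both libraries, and POLE in DMSO. Peaks of the members were 1633 bp long at the median in DMSO and 1283 bp in MAK683, and those of the coding genes 1657 and 1396 bp. Among the 43 members with a peak in both libraries, 90 separate peaks were called within the windows in DMSO and 74 in MAK683, a mean of 2.09 and 1.72 a gene, against 2.02 and 1.99 for the coding genes. A single peak was called at 15 of these members (34.9%) in DMSO and 23 (53.5%) in MAK683, against 41.4% and 44.7% of the coding genes.

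**Figure D4:**
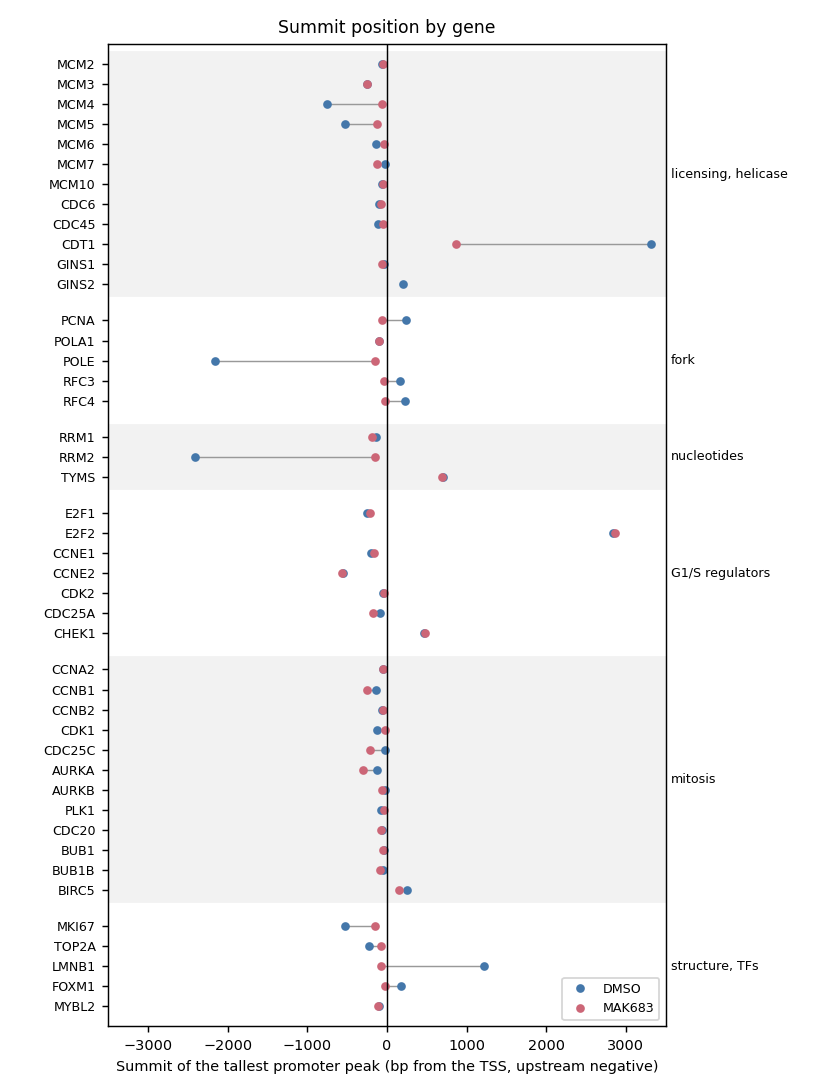
Distance of the summit of the tallest promoter peak from the TSS in bp (x axis, upstream negative) for each of the 44 genes by role, in the DMSO and the MAK683 library, with a line joining the summits of a gene. Most pairs lie within 300 bp of the TSS. CDT1, POLE, RRM2, LMNB1, MCM4, MCM5 and MKI67 have DMSO summits more than 300 bp away and clearly nearer MAK683 summits. The summits of E2F2 lie 2844 and 2870 bp downstream.

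A divergent coding gene started within 1000 bp on the other strand at 7 members (15.9%), against 11.4% of coding genes with a peak. These pairs were MCM4 with PRKDC, MCM7 with AP4M1, CDC45 with UFD1, POLE with PXMP2, CDK2 with PMEL, AURKA with CSTF1 and FOXM1 with RHNO1. Accessibility at such promoters belongs to both genes. The median log2 ratio among the members was -0.46 with and -0.50 without a partner, and among coding genes -0.54 and -0.40.

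The elements were counted in the promoter windows of each phase, as a description without a test. RefSeq windows were matched for 37 members. MCM4, MCM5, CCNE2, CDK2, AURKA, BIRC5 and FOXM1 had none. An E2F site was found in 15 of 23 replication and G1/S windows (65.2%) and in 1 of 10 mitotic windows (10%), that of CDK1, against 4.10% of 22199 windows of coding genes and 3.31% of all 35116 windows. A CHR element was found in 2 of 23 (8.70%), those of MCM6 and RRM1, and in 7 of 10 (70%), against 13.7% of coding and 16.4% of all windows. CCAAT boxes were found in 16 of 23 (69.6%) and 9 of 10 (90%), against 34.7% and 34.6%. A CHR element and a CCAAT box occurred together in 6 of 10 mitotic windows (60%), against 5.48% of coding windows and 6.38% of all windows. At least 2 separate CCAAT boxes stood in 17 of 37 member windows (45.9%), against 11.3% and 10.6%. Base composition was similar, with a median of 63.3% G and C in member windows and 62.3% in coding windows. The annotated starts inside the windows of RRM1, AURKB and CHEK1 lie 114, 326 and 1061 bp from the GENCODE TSS used for their peaks.

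**Figure D5:**
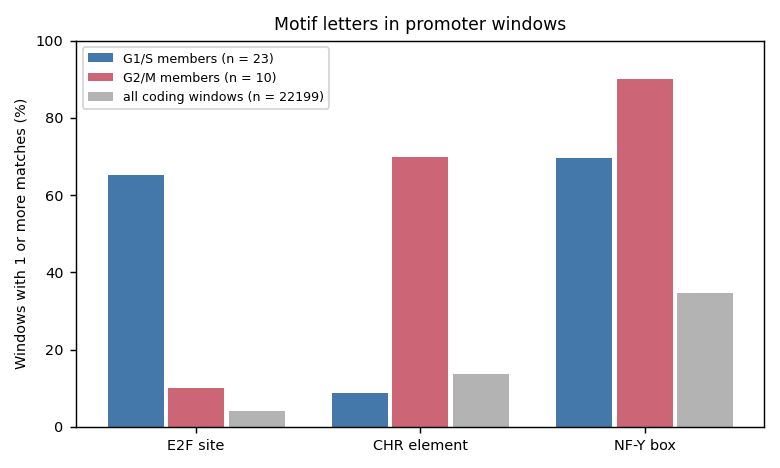
Share of RefSeq promoter windows (%, y axis) that hold at least 1 match to an E2F site, a CHR element or an NF-Y (CCAAT) box, for 23 replication and G1/S members, 10 mitotic members and 22199 windows of coding genes. E2F matches stand at 65.2% in the first group and 10% in the second, CHR matches at 8.70% and 70%, and NF-Y boxes at 69.6% and 90%.

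The log2 ratios of members with and without each element overlapped. The median log2 ratio was -0.41 for the 16 members with an E2F site and -0.57 for the 21 without. The first group ran from -1.81 to -0.14 and the second from -1.14 to 0.15. It was -0.52 for the 11 with a CHR element and -0.50 for the 26 without. With a CCAAT box the median over 28 members was -0.54, and without it over 9 members it was -0.40. Summits can be placed in the windows printed above for 5 of the 7 genes in both libraries. The CDK1 summit was at base 123 in DMSO, where its E2F site begins, and at base 222 in MAK683, between a CCAAT box and a CHR element. The MCM6 summits were at bases 118, between its E2F sites, and 221, past its last element, and those of CCNB2 at 184 and 206, on either side of its CCAAT box at 197. The BUB1 summits were at bases 221 and 207, between a CCAAT box at 197 and the CHR element at 252. The CCNE1 summits were at bases 50 and 95 of a window without these elements. The MKI67 summit in MAK683 was at base 98, before its first element at 153, and its DMSO summit and that of GINS2 lay outside their windows. Tags were extended to 200 bp, so a summit places the cuts only broadly.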

How the data were processed

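Per the study's methods and the labels, Trim-galore trimmed the 150 bp reads and Bowtie2 placed them on hg19. Narrow peaks came from MACS 2.1.1.20160309 per the file headers, which the authors ran separately for DMSO and MAK683 (the submitters' processing notes name MACS2 2.1.0 and 2.2.7.1), without a control or a local background, with tags read as single ends, shifted upstream by 100 bp, extended to 200 bp and kept once per position, at a q-value cutoff of 0.05. The deposited pileup is a signal in whole tags at the summit, left unscaled. Fold enrichment as deposited is a ratio to the genome-wide background of the library, and the deposited −log10 q-value depends on depth. These last values served only in alternatives.

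Each gene had 1 TSS, that of its canonical transcript in GENCODE 44. The height was the tallest pileup among peaks reaching within 3 kb of it, divided by tags after filtering (16598348 of 23901891 in DMSO, 18265284 of 26692938 in MAK683). Where a library had no peak, 0.361 RPM was used, the lowest height in DMSO and above the lowest in MAK683. Heights have exact 95% Clopper-Pearson intervals, log2 ratios exact conditional ones and medians order-statistic ones. The intervals of heights and ratios cover counting error only, and those of medians the spread over genes. Without molecular identifiers the tags may repeat molecules. With 1 library per group no test was run and no p-value is given. The members and all lists were chosen with earlier results of these data known. Given in full were the 3 tallest members in DMSO, the 3 highest and 3 lowest log2 ratios, members with a peak in 1 library, and MKI67, LMNB1, E2F1 and CCNE1. Alternatives changed the TSS window, TSS set, peak filter, peak choice and scaling. The script for the ratios was tested on simulated data. The simulation drew 1 count per gene and library, so the intervals were not checked for heights chosen as the tallest of several peaks. Python 3.11.15, numpy 2.4.6 and scipy 1.17.1 were used.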

Additional observations from a re-analysis of the deposited data

How the results depend on the processing

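The numbers of members with a promoter peak, 44 in DMSO and 43 in MAK683, stayed within 1.5 times under each alternative that could change them. Scaling moved the comparison of heights. Without depth scaling the median log2 ratio was -0.34 for all members and -0.28 for the replication and G1/S genes, 10 members were at least 1.5-fold lower and 2 were higher. Divided by the median promoter height of each library, these medians turned to 0.0121 and 0.0786, that of the mitotic genes was -0.0779, 22 members were lower, 22 higher and 2 at least 1.5-fold lower. Less the median log2 ratio of all coding promoters, chosen after seeing the data, the medians were -0.0602, 0.00626 and -0.15, 24 members were lower, 20 higher and 2 at least 1.5-fold lower. Both alternatives remove the shift of all promoters by construction. Scaled by total tags, the median heights were 1.46 RPM in DMSO and 1.05 in MAK683, since the totals include tags removed by the filter. With the peak of the nearest summit, 2 members were higher, as RRM2 joined CCNE1. Across all alternatives, 75 summary values and 476 values of single genes stayed within their interval or within 1.5 times of a count, 16 and 6 moved further, and 3 medians changed sign. GINS2 moved most, to -0.49 with a −log10 q of at least 10, a filter that raises its floor. No paired analysis was possible because each group was 1 library, and for the same reason no replicate could be left out. Depth limits every single gene: peaks of members held 9 to 60 tags, and no member less than 1.5-fold lower had a counting interval that excluded 0.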
